A study of Mus musculus with 6 samples.

Results

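The genes that set whether a neuron signals with GABA or with glutamate were compared between 2 sorted populations of the embryonic mouse ventral midbrain. They were given as 6 genes, Gad1, Gad2, Slc32a1, Slc17a6, Slc17a7 and Slc17a8, and were found by exact match of the gene symbol in the platform annotation. Of these 6, 5 had a probe set, 11 probe sets in all, among 18201 genes named on the array. Slc17a8 had no probe set under its symbol and was not analysed here. There were 4 members with a signal high enough for a test, Gad1, Gad2, Slc32a1 and Slc17a6, among 12047 genes tested.

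Messenger RNA was measured on 6 Affymetrix arrays, 1 per sample. The Ngn2-GFP positive group (3 arrays, CD1/129 mice) held GFP-positive cells of a reporter line for Ngn2 (Neurog2), a proneural transcription factor, and is labelled as midbrain dopaminergic progenitors. The Lmx1a-GFP negative group (3 arrays, C57BL/6 mice) held GFP-negative cells of a reporter line for Lmx1a, a transcription factor of the dopaminergic lineage, and is labelled as a non-dopaminergic progenitor population. Both were isolated by flow cytometry from ventral mesencephalon at embryonic day 12.5 (E12.5), and both are called biological replicates in the submitters' text, which does not say how many embryos went into a sample. They are called positive and negative cells here. Strain, mouse line and sort gate differed between the groups on every array, so their parts cannot be told apart.

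GABA is made from glutamate by glutamate decarboxylase, which exists as a pair of enzymes encoded by Gad1 (GAD67) and Gad2 (GAD65), and is loaded into synaptic vesicles by the transporter encoded by Slc32a1 (VGAT). Glutamate is loaded by the vesicular transporters VGLUT1 (Slc17a7), VGLUT2 (Slc17a6) and VGLUT3 (Slc17a8), of which VGLUT2 is the usual one in midbrain and brainstem. In the developing mouse midbrain, GABAergic neurons are specified by transcription factors that include Gata2, Tal1, Tal2 and Helt. Midbrain dopaminergic neurons can also use glutamate through VGLUT2, and some carry GABA-related genes.

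Signals are MAS5 values in arbitrary units, for which every array had a 2% trimmed mean of 100 and a median of 18.1 to 25.5. A probe set was tested if above its array's 40th percentile (10.2 to 15.8) on 3 arrays or more, and a gene was represented by its brightest tested probe set. Differences are log2 of positive over negative cells from limma, with the standard error (SE), n = 3 arrays per group and Benjamini-Hochberg adjustment over all genes tested, and averages are geometric means. By this measure 51 genes (0.423%) were higher and 77 genes (0.639%) lower in positive cells at an adjusted p under 0.05, and the groups did not overlap for 1862 genes (15.5%). Positive replicates 1 and 2 stood apart by their hybridization spike-ins, which averaged 2293 and 2352, against 4254 to 6560 on the other 4 arrays, where positive replicate 3 had 5018. Results are therefore also given for the 4 arrays of higher spike-in signal, which leaves 1 positive array that is assumed to vary like the others.

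The samples were checked against markers. Th and Slc6a3, which mark dopaminergic neurons, were higher in positive cells (values below), whose label names dopaminergic progenitors. General neuron markers were bright in both groups: 13 of 13 were tested, none passed in limma (4 did at an unadjusted p under 0.05), and their summed signal was 17000 to 24200 in positive and 20500 to 25000 in negative cells. The brightest were the neuronal tubulin Tubb3 (-0.30, adjusted p = 0.708) and the migration protein Dcx (-0.45, adjusted p = 0.579). Markers of other cell types moved with the group. Of 8 blood cell genes, 5 were tested and all 5 were lower in positive cells, with summed signals of 307 to 627 in positive and 7510 to 14900 in negative cells, and of 8 microglia and macrophage genes 4 of the 5 tested were lower, with sums of 21.8 to 38.9 in positive and 370 to 771 in negative cells. Embryonic globins Hbb-bh1 and Hba-x were at least 55-fold and at least 56.1-fold lower, and the macrophage receptor Csf1r at least 15.4-fold lower, in each case against a positive group under the 40th percentile on all 3 arrays, with adjusted p of 2.81e-05, 8.44e-07 and 0.00313. In the same way Tyrobp was at least 11.5-fold and Aif1 at least 3.64-fold lower (adjusted p = 0.000276 and 0.00995), and Hbb-y differed by -4.65 (adjusted p = 4.8e-06). Alas2 and C1qb were lower too (adjusted p = 0.0275 and 0.000703), at 0.679 to 14.9 and 7.88 to 12.2 in positive cells, where 1 array of each exceeded the 40th percentile, against 47.1 to 109 and 82.6 to 150 in negative cells. Alas2 did not pass on the 4 arrays of higher spike-in signal (adjusted p = 0.318). It passed without positive replicate 3 and not without any other 1 array (0.0533 to 0.137), and Aif1 did not pass without negative replicate 1 (0.123) or 2 (0.122). No marker of either list was listed at 0. Endothelial and mesenchymal genes had sums of 83.1 to 139 in positive and 91.7 to 104 in negative cells, and none of the 3 tested passed (0 at an unadjusted p under 0.05), the brightest being Col1a2 (-0.08) and Pdgfrb (-0.26). The part of the blood and microglial RNA in the members' values was not tested. In sorted bulk samples, fewer cells of a type and less RNA per cell cannot be told apart.

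Expression of the GABA synthesis gene Gad1 was lower in positive cells, and that of the vesicular glutamate transporter gene Slc17a6 was higher. Gad2 had lower values in every positive array than in any negative one without passing the test, and Slc32a1 overlapped between the groups. Of the 4 members tested, 1 passed in each direction at the level of genes, where 0.423% of all genes were higher and 0.639% lower. Members and lists were chosen with earlier results of these data known, so no such count is a test against the share of all genes. With each probe set tested by itself, 1 of 9 was lower and 0 were higher, where 52 of 27738 probe sets (0.187%) were higher and 97 (0.35%) lower; both Slc17a6 probe sets had an unadjusted p under 0.05 (0.000522 and 0.00632). The groups did not overlap for 6 of the 9, 4 lower and 2 higher in positive cells, against 3866 of all probe sets (13.9%). Probe sets of 1 gene measure the same RNA and are not replicates.

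**Figure D1:**
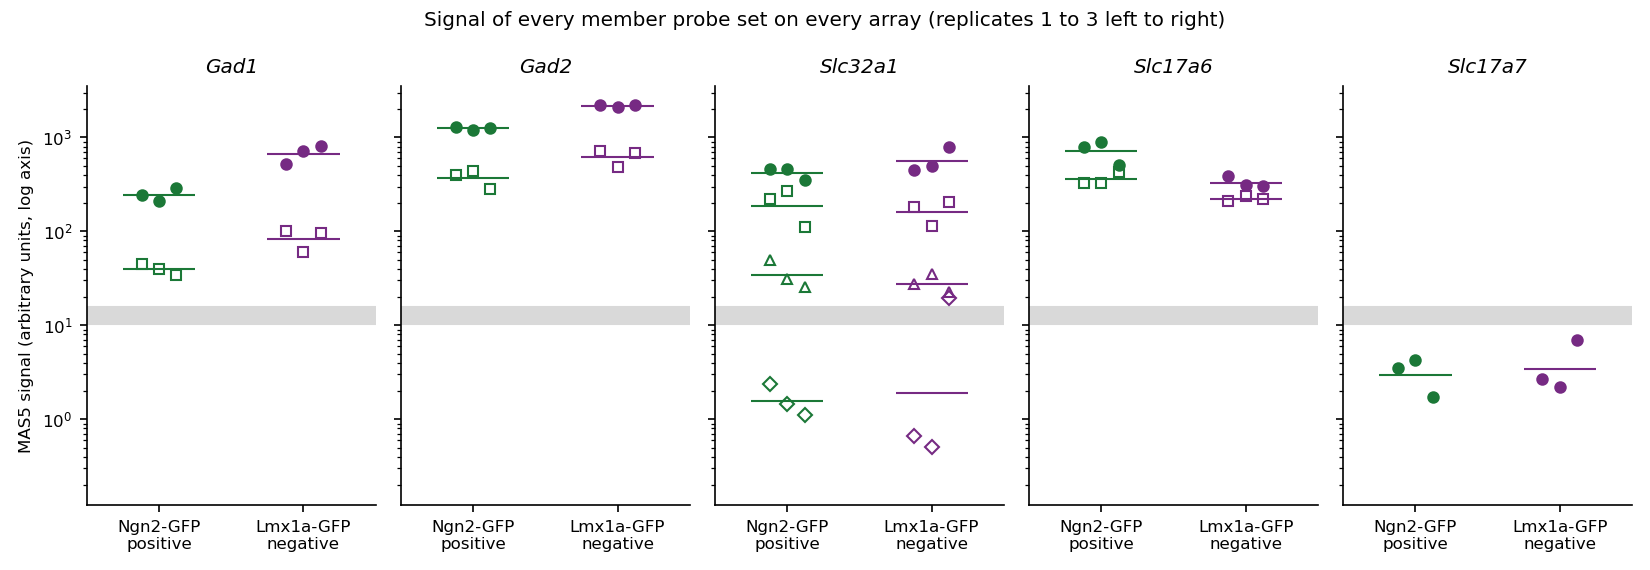
MAS5 signal (arbitrary units, log axis) of all 11 member probe sets on each of the 6 arrays, positive cells on the left and negative cells on the right of each panel. Filled circles are the probe set with the highest signal of each gene, open symbols its other probe sets, lines are geometric means of the plotted signals and the grey band spans the 40th percentiles of the arrays (10.2 to 15.8); both Gad1 and both Gad2 probe sets are lower in all positive arrays, both Slc17a6 probe sets are higher, and Slc17a7 lies under the band throughout.

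Gad1 encodes the decarboxylase found throughout the neuron, the main source of GABA in the embryonic mouse brain. Its brighter probe set, 1416561_at, had signals of 242, 211 and 288 in positive cells, against 520, 719 and 807 in negative cells. The highest positive array lay below the lowest negative one. The log2 means were 7.94 ± 0.22 in positive and 9.39 ± 0.33 in negative cells (SD, n = 3 each), a difference of -1.45 (SE 0.23, 95% interval -1.94 to -0.96) or 2.74-fold lower, with an adjusted p of 0.00701 in limma. It ranked 44 by p among the 12047 genes. The second probe set, 1416562_at, was dimmer, at 44.9, 39.9 and 34.6 in positive and 102, 60 and 96.2 in negative cells. Its groups did not overlap either, and its difference of -1.08 (SE 0.34) did not pass among the 27738 probe sets (adjusted p = 0.307). The gene passed with any 1 array left out, at adjusted p of 0.00507 to 0.0476. On the 4 arrays of higher spike-in signal the difference was -1.22 (adjusted p = 0.387), and with the spike-in level as a block it was also -1.22 (adjusted p = 0.224), so the call was lost. It was lost too without the filter on dim probe sets (adjusted p = 0.0709) and without a mean-variance trend (adjusted p = 0.0966), at the same difference.

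Gad2 encodes the decarboxylase held near synaptic vesicles. Probe set 1429589_at was close among replicates, at 1300, 1200 and 1260 in positive cells and 2210, 2110 and 2190 in negative cells. The groups were far apart compared with their spread, with log2 means of 10.29 ± 0.06 in positive and 11.08 ± 0.03 in negative cells (SD, n = 3 each). The difference of -0.79 (SE 0.19, 95% interval -1.21 to -0.38), or 1.73-fold, did not pass (adjusted p = 0.0902) in limma, which moderates each gene's spread towards that of genes of like brightness. The other probe set, 1421978_at, had 394, 440 and 281 in positive cells and 712, 487 and 679 in negative cells. Its groups also stayed apart, at -0.76 (SE 0.24, adjusted p = 0.317 among probe sets). The gene passed in 2 of 17 alternatives, without positive replicate 3 (-0.80, adjusted p = 0.0146) and when less specific probe sets, by the suffixes _s_at, _x_at and _a_at, were left out of the whole table (adjusted p = 0.0461). On the 4 arrays of higher spike-in signal Gad2 was at -0.79 (adjusted p = 0.547).

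Slc32a1 encodes the transporter that fills vesicles with GABA, or with glycine in glycinergic neurons. Its brightest probe set, 1422756_at, had 464, 461 and 348 in positive cells, against 448, 495 and 787 in negative cells. Positive replicates 1 and 2 lay between the negative values, so the groups overlapped. The difference was -0.41 (SE 0.24, 95% interval -0.94 to 0.12, adjusted p = 0.564), and the interval allows anything between 0.522 and 1.09 times the negative level. Probe set 1456457_at read 222, 267 and 110 in positive and 181, 115 and 205 in negative cells (0.20, SE 0.34, adjusted p = 0.886), and 1447574_s_at, whose suffix marks probes that can match several transcripts, read 49.6, 31 and 25.5 in positive and 27.5, 35 and 22.4 in negative cells (0.29, SE 0.45, adjusted p = 0.873). The 3 probe sets thus disagreed in sign, and their mean differed by 0.03 (adjusted p = 0.982). The fourth, 1447573_at, exceeded the 40th percentile on negative replicate 3 alone, at 19.6, with 0.511 to 2.35 on the other 5 arrays, and was not tested.

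Slc17a6 encodes VGLUT2. Probe set 1418610_at had signals of 799, 897 and 512 in positive cells, against 385, 313 and 301 in negative cells. All 3 positive arrays lay above all 3 negative ones, with positive replicate 3 nearest to them. The log2 means were 9.48 ± 0.43 in positive and 8.37 ± 0.19 in negative cells (SD, n = 3 each), a difference of 1.11 (SE 0.24, 95% interval 0.60 to 1.63) or 2.16-fold higher, with an adjusted p of 0.0475 in limma, just within the threshold. Probe set 1428379_at had 329, 331 and 431 in positive and 208, 237 and 220 in negative cells. Its groups were apart as well, at 0.70 (SE 0.22), but here positive replicate 3 was the highest array. Neither passed among all probe sets, at adjusted p of 0.0777 and 0.295. The gene's call rested on all but 1 of the arrays: it held without positive replicate 3 (1.35, adjusted p = 0.00533) and was lost without positive replicate 1 (1.03, adjusted p = 0.23), positive replicate 2 (0.95, adjusted p = 0.295), negative replicate 1 (1.22, adjusted p = 0.0782), negative replicate 2 (1.07, adjusted p = 0.166) or negative replicate 3 (1.04, adjusted p = 0.149). On the 4 arrays of higher spike-in signal the difference was 0.63 (adjusted p = 1), and with the spike-in level as a block 0.63 (adjusted p = 0.667). It was also lost with arrays centred on their median (adjusted p = 0.14), without the filter (0.202) and without the trend (0.267).

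Slc17a7, the gene of VGLUT1, is used mainly by cortical and cerebellar neurons. Its 1 probe set, 1428986_at, had 3.55, 4.24 and 1.72 in positive cells and 2.65, 2.2 and 7.04 in negative cells. Every one of these values lay under the 40th percentile of its array, so it was not well above background in either group and no fold is given.

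**Figure D2:**
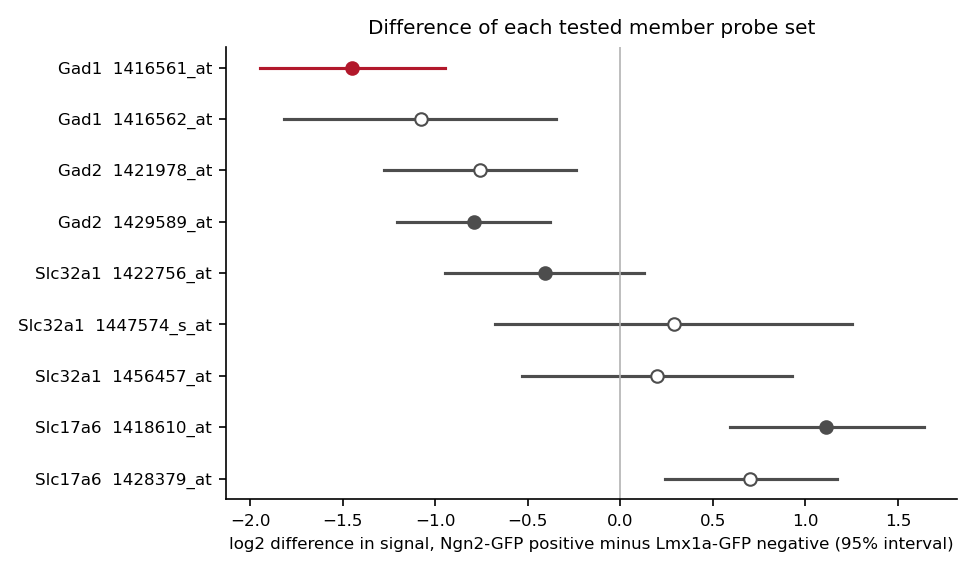
Log2 difference in signal, positive minus negative cells, for the 9 member probe sets tested, with 95% intervals from the limma fit over all probe sets (n = 3 arrays per group). Filled points represent the gene in the gene-level test and red marks an adjusted p under 0.05 among 27738 probe sets; the 4 Gad1 and Gad2 intervals lie below 0, the Slc17a6 intervals lie above 0 and the 3 Slc32a1 intervals cross it.

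A ratio of 2 members taken within an array does not change when the whole array is rescaled. Its level carries no meaning, because probe sets differ in brightness, and only its difference between groups is read. The log2 ratio of Gad1 to Slc17a6 was -1.72, -2.09 and -0.83 in positive cells, against 0.44, 1.2 and 1.42 in negative cells. Every positive array was below every negative one, by means of -1.55 ± 0.65 in positive and 1.02 ± 0.52 in negative cells (SD, n = 3 each), a difference of -2.56 or 5.92-fold. On the 4 arrays of higher spike-in signal this difference was -1.85, and without any 1 array it lay between -2.92 and -2.30. The ratio of Gad2 to Slc17a6 was 0.70, 0.42 and 1.30 in positive and 2.52, 2.75 and 2.86 in negative cells, a difference of -1.91 with no overlap. That of Slc32a1 to Slc17a6 was -0.78, -0.96 and -0.56 in positive and 0.22, 0.66 and 1.39 in negative cells, a difference of -1.52 with no overlap. For Gad1 and Gad2 the lack of overlap follows from the members' own values, which were lower for both and higher for Slc17a6 in every positive array. The own signal of Slc32a1 overlapped, and its ratio includes the Slc17a6 difference of 1.11. That ratio used probe set 1422756_at alone, while 1456457_at and 1447574_s_at had differences of 0.20 and 0.29. It is therefore not a sign that Slc32a1 itself was lower. Among the GABA genes, Gad1 relative to Slc32a1 was -0.94, -1.13 and -0.27 in positive and 0.22, 0.54 and 0.04 in negative cells, also without overlap, and Gad1 relative to Gad2 differed by -0.66, with -2.42, -2.50 and -2.13 in positive and -2.09, -1.55 and -1.44 in negative cells. Only Gad2 relative to Slc32a1 overlapped among the 6 pairs, with a difference of -0.38. These ratios were not tested, and pairs other than Gad1 and Slc17a6 were chosen after the values were seen.

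**Figure D3:**
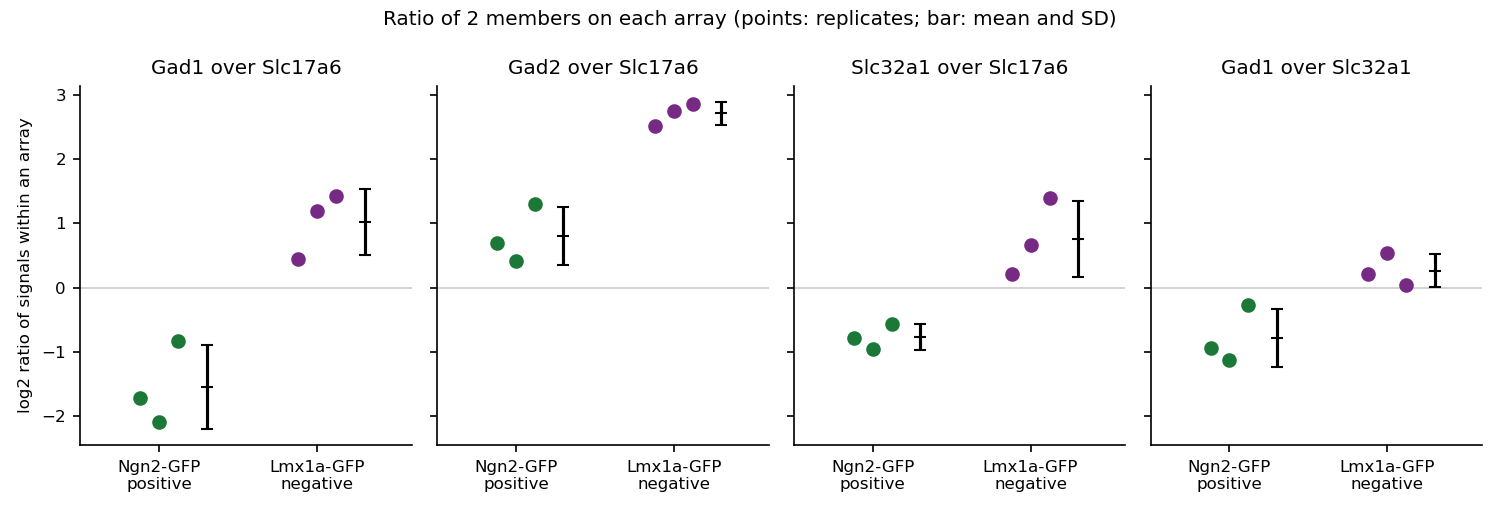
Log2 ratio of 2 members' signals on each array, positive cells left and negative cells right in each panel; points are arrays in order of replicate number, and bars are the mean and SD of 3 arrays. In the 4 pairs shown the positive arrays all lie below the negative ones, with the widest gap for Gad1 over Slc17a6 (means -1.55 in positive and 1.02 in negative cells).

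The 250 bases before the annotated start of the members that moved, or whose groups stayed apart, are shown because Gad1 and Gad2 shared a direction and Slc17a6 had the other. They are from RefSeq (GRCm38.p6), in which all 6 members were matched with 8 starts, and all 4 windows lie on the plus strand, printed 5′ to 3′. Letters searched on both strands were CAGATG and CAGCTG (E-box forms that proneural factors can bind), the GATA-factor forms AGATAA or AGATAG or TGATAA or TGATAG, and the homeodomain core TAATTA. Matches are in capitals.

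Gad1, chr2:70561879-70562128: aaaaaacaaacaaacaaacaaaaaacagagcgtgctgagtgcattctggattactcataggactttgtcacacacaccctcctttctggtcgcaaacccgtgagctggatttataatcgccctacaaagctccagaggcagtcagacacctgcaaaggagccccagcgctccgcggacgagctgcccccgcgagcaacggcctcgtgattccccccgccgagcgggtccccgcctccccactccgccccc

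Gad2, chr2:22622077-22622326: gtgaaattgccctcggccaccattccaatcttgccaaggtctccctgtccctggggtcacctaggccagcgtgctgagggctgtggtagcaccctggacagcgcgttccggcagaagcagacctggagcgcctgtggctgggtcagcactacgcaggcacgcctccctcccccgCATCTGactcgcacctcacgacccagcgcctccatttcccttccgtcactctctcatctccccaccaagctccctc

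Slc17a6 first start, chr7:51621580-51621829: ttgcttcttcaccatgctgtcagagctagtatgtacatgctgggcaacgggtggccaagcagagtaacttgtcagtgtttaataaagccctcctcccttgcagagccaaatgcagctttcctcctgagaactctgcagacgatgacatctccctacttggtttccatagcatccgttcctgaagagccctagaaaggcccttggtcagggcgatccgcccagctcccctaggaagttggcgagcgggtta

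Slc17a6 second start, chr7:51624387-51624636: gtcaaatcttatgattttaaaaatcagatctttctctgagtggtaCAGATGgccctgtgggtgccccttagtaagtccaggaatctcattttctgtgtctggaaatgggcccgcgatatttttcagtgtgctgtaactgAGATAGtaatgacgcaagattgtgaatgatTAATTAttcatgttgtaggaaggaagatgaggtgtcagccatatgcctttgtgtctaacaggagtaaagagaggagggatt

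The Gad1 and Gad2 windows were rich in G and C (58% and 64%, with 17 and 13 CpG), above the median of 52.4% and 6 CpG over 32851 such windows of 27025 genes. The first Slc17a6 window had 53.2% and 7 CpG, and the second, at 41.2% and 3 CpG, was poorer in both. The Gad1 window and the first Slc17a6 window held none of the searched letters. The Gad2 window held 1 match to CAGATG on the minus strand, printed as CATCTG, at -76 to -71 from the start. The second Slc17a6 window held CAGATG at -205 to -200, the GATA-factor form AGATAG at -111 to -106 and TAATTA at -81 to -76. Of the windows not printed, that of Slc32a1 held AGATAG at -157 to -152, and that of the second Slc17a8 start held CAGATG, read on the strand opposite to the gene, at -42 to -37 and TAATTA at -141 to -136. Of all windows, 14.4% held CAGATG, 13% CAGCTG, 26.5% a GATA-factor form and 4.84% TAATTA, and no 2 matches in the members overlapped. A match describes the letters and is not evidence of binding.

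The nearest tested protein-coding genes beside the members on the chromosome did not pass. Genes that were not tested were passed over, so those named need not be directly adjacent. The nearest tested gene on each side gave 8 genes, of which 0 passed in limma and 4 had an unadjusted p under 0.05. Beside Gad1, Gorasp2 differed by 0.78 (SE 0.28, adjusted p = 0.315) and Ubr3 by -0.02, and beside Slc17a6, Fancf differed by 0.68 (adjusted p = 0.458) and Nell1 by -1.54 (adjusted p = 0.271). Gpr158 and Abi1 beside Gad2 differed by 0.42 and 0.32. Ralgapb and Actr5 beside Slc32a1 differed by -0.24 and 1.29 (adjusted p = 0.463 for Actr5).

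Beyond the members, lists held 91 genes of GABA and glutamate handling and of other transmitters, of which 54 were tested. There were 4 higher in positive cells (Th, Slc6a3, Gria3 and Slc18a2) and 1 lower (Slc6a4), where 0.423% and 0.639% of all genes were called. These lists too were chosen with earlier results known, so the counts are not a test against those shares. No gene of GABA breakdown, uptake, reception or chloride balance passed. Of 8 genes of GABA turnover and uptake, 5 were tested and none passed (1 at an unadjusted p under 0.05), with a median difference of 0.34 against 0.03 over all genes. Abat, the transaminase that breaks GABA down, was that 1 gene, at 213, 198 and 96.8 in positive and 99.1, 68.1 and 120 in negative cells (0.78, SE 0.34, adjusted p = 0.424); its groups overlapped at positive replicate 3. The brightest 2 of the list, the taurine transporter Slc6a6 and the creatine transporter Slc6a8, differed by 0.34 (adjusted p = 0.554) and 0.30 (adjusted p = 0.671).

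Of 19 GABA receptor genes, 15 had a probe set and 8 were bright enough for a test, while the other 7, Gabra4, Gabra6, Gabrd, Gabre, Gabrq, Gabrr1 and Gabrr2, lay under the 40th percentile on 5 or 6 of the 6 arrays. None of the 8 passed in limma, with 0 at an unadjusted p under 0.05, differences from -0.31 to 0.27 and a median of -0.06. The GABA-B receptor subunit Gabbr1 averaged 1410 in positive and 1670 in negative cells (-0.24, SE 0.22, adjusted p = 0.718), and the GABA-A subunit Gabrb2 477 in positive and 535 in negative cells (-0.17, SE 0.21, adjusted p = 0.801). Of the chloride transporters that set whether GABA excites or inhibits, the importer Slc12a2 differed by 0.03 (SE 0.25, adjusted p = 0.979) and the exporter Slc12a5 by 0.18 (SE 0.22, adjusted p = 0.787).

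On the glutamate side the AMPA receptor subunit Gria3 was higher in positive cells, at 363, 431 and 264 against 143, 150 and 144 in negative cells. Its groups were well apart, with a difference of 1.25 (SE 0.23, adjusted p = 0.0197). The call held without positive replicate 3 (adjusted p = 0.0068) and was lost without any of the other 5 arrays (adjusted p of 0.062 to 0.169) and on the 4 arrays of higher spike-in signal (0.86, adjusted p = 1). It was the only 1 of 13 tested ionotropic subunits, of 17, to pass, and the list's median was 0.02. Gria4, another AMPA subunit, had the other sign, at -0.55 (SE 0.24, adjusted p = 0.437).

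None of the 11 tested of 16 genes for glutamate and glutamine metabolism and uptake passed (2 at an unadjusted p under 0.05, Slc1a3 and Got1), with a median of -0.05. The brightest were the glutamine transporters Slc38a1 (-0.05, SE 0.20, adjusted p = 0.949) and Slc38a2 (-0.32, SE 0.21, adjusted p = 0.593). Metabotropic receptor genes were dim. The 5 tested of 8 all had positive differences, from 0.15 to 1.13 with a median of 0.86, where 6307 of all 12047 genes tested had one. None passed, and 0 had an unadjusted p under 0.05. The largest was that of Grm5, under the 40th percentile on all 3 negative arrays and so tested through its positive arrays alone. Against that percentile it was at least 1.56-fold higher (adjusted p = 0.549 in limma). The filter can favour such a sign, so the shared sign is not read as a result. Grm4 differed by 0.86 (adjusted p = 0.55) and Grm7 by 0.15 (adjusted p = 0.93). The SLC17 relatives that do not load glutamate into synaptic vesicles were likewise without a call in the 2 tested of 6 (0 at an unadjusted p under 0.05), the lysosomal transporter Slc17a5 at 0.27 (adjusted p = 0.845) and the nucleotide transporter Slc17a9 at -0.27 (adjusted p = 0.932).

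The largest differences in the transmitter lists were those of monoamine genes. Th, the rate-limiting enzyme of dopamine synthesis, had 188, 214 and 118 in positive cells and 12.2, 1.44 and 10.5 in negative cells (4.89, SE 0.69, adjusted p = 0.00413). Only negative replicate 3 exceeded its 40th percentile (10.2), so the size of this difference depends on values near background, and it was 2.34 with log2 of the value plus 32. The dopamine transporter gene Slc6a3 was under the 40th percentile on all 3 negative arrays and was at least 5.33-fold higher in positive cells (adjusted p = 0.0132). The vesicular monoamine transporter gene Slc18a2 had 385, 337 and 527 in positive and 166, 227 and 164 in negative cells (1.15, SE 0.24, adjusted p = 0.0377). The serotonin transporter gene Slc6a4 ran the other way, at 9.78, 5.85 and 13.3 in positive and 85.3, 91.1 and 88 in negative cells (-3.27, SE 0.45, adjusted p = 0.00321; -1.53 with log2 of the value plus 32, with 2 of the 3 positive arrays under the 40th percentile), and the serotonin synthesis gene Tph2, under the 40th percentile on all positive arrays, was at least 4.14-fold apart in the same direction without passing (adjusted p = 0.0589). Groups did not overlap for any of these 5. Th and Slc6a4 passed without any 1 array. Slc6a3 did not pass without positive replicate 1 (adjusted p = 0.113) or positive replicate 3 (0.0539), Slc18a2 passed without negative replicate 2 (0.0455) and not without any other array (0.059 to 0.127), and Tph2 passed without positive replicate 1 (0.0114). On the 4 arrays of higher spike-in signal Slc18a2 was at 1.52 (adjusted p = 0.234), and Th (0.563), Slc6a3 (0.492) and Slc6a4 (0.0538) did not pass either. Tph2 did pass there (0.0494), so the 1 gene called lower on those arrays was Tph2 and not Slc6a4. None of the 4 genes called higher passed without the filter or without the trend.

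**Figure D4:**
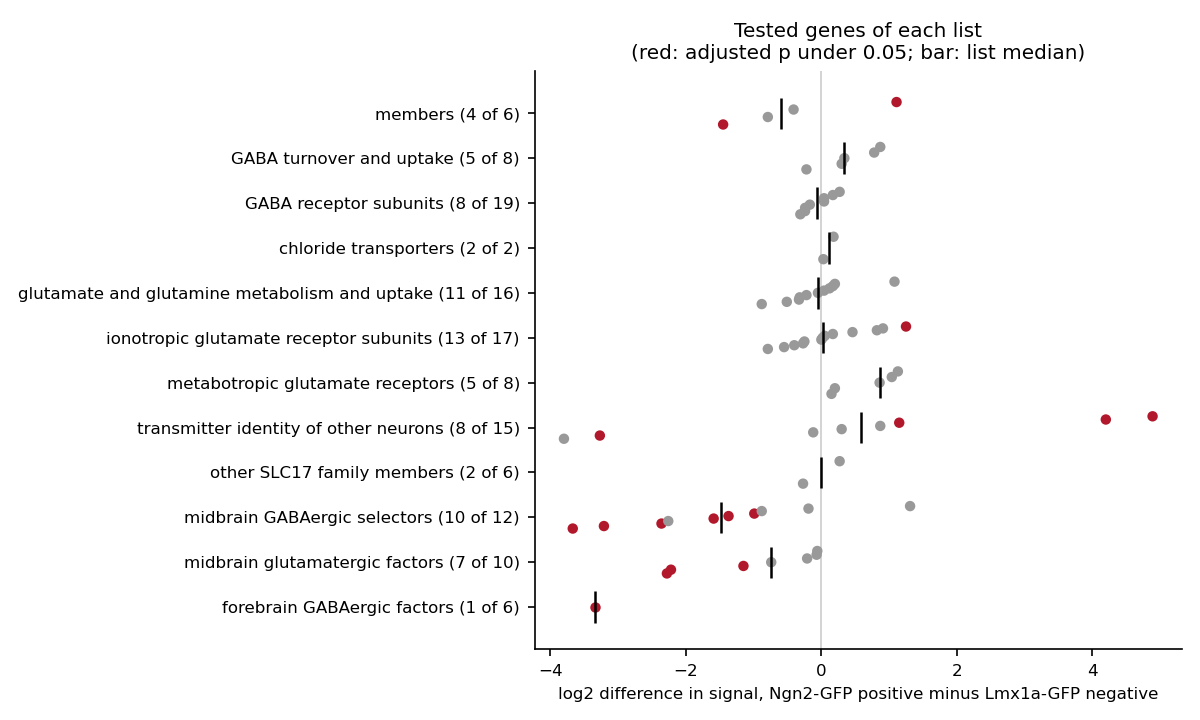
Log2 difference, positive minus negative cells, of every tested gene in the member list, the transmitter lists and the lists of transcription factors (n = 3 arrays per group). Each point is a gene, red where its adjusted p is under 0.05, bars are list medians and brackets give tested genes of all genes in the list; the GABAergic selectors sit at a median of -1.48 while GABA and ionotropic glutamate receptors centre near 0 (-0.06 and 0.02).

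Transcription factors that select GABAergic fate in the mouse midbrain were lower in positive cells, as Gad1 was. Of 12 such genes, 10 were tested, 6 were lower and 0 higher, where 0.639% of all genes were lower. The list was chosen with earlier results of these data known, so its count is not a test against that share. Its median was -1.48, with summed signals of 1360 to 1610 in positive and 4800 to 5320 in negative cells. Tal2, a factor needed for midbrain GABAergic neurons in the mouse, had 117, 97.1 and 185 in positive and 1410, 1250 and 957 in negative cells (-3.21, SE 0.26, adjusted p = 2.81e-05). Nkx2-2, a homeobox factor of ventral progenitors that is not specific to GABAergic cells, had 118, 131 and 73.8 in positive and 1520, 1250 and 1250 in negative cells (-3.67, SE 0.24, adjusted p = 4.8e-06). The zinc-finger selectors Gata3 and Gata2 were also lower, with differences of -2.36 (SE 0.35, adjusted p = 0.0054) and -1.59 (SE 0.24, adjusted p = 0.00654). None of these 4 overlapped between groups, and all 4 passed on the 4 arrays of higher spike-in signal and without any 1 array. Lhx1 (-1.37, adjusted p = 0.00748) and Tal1 (-0.99, adjusted p = 0.0275) completed the 6, and neither passed on those 4 arrays (0.293 and 0.756). Lhx1 was lost without positive replicate 2 (0.0538), and Tal1 held only without positive replicate 3, with 0.0647 to 0.19 without each of the others. Without the filter, or without the trend, Nkx2-2 and Tal2 alone still passed. Gata2, Gata3 and Tal1 are also used in blood cell development, and blood cell markers were lower in positive cells as given above; the part of blood cells in these values was not tested.

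No tested factor of midbrain glutamatergic lineages was called higher in positive cells, unlike Slc17a6. Of 10 listed genes 7 were tested, 3 were lower and 0 higher, where 0.639% of all genes were lower and 0.423% higher. This list too was chosen with earlier results known, so its count is not a test against those shares. Its median was -0.74, with sums of 3390 to 4900 in positive and 5550 to 6270 in negative cells. The 3 called lower in limma were Barhl2 (-2.28, adjusted p = 0.0093), Isl1 (-2.22, adjusted p = 0.00764), which also marks motor neurons, and Tcf7l2 (-1.15, adjusted p = 0.0111), a Wnt effector expressed in many neural cells. On the 4 arrays of higher spike-in signal Barhl2 alone still passed, and none of the 3 did without the filter or without the trend. Barhl2 was lost without negative replicate 1 (adjusted p = 0.054). Tcf7l2 held without positive replicate 3 and was lost without each of the other 5 arrays (0.0502 to 0.0805). It was also lost with its probe sets averaged (-0.99, adjusted p = 0.29) and with arrays centred on their median (adjusted p = 0.16). Pou4f1, a factor of red nucleus neurons, was bright in both groups, averaging 2310 in positive and 2680 in negative cells (-0.21, SE 0.27, adjusted p = 0.799). In limma Lhx9 (-0.06, adjusted p = 0.973) and Nkx6-1 (-0.07, adjusted p = 0.952) differed little, and Barhl1 was at -0.74 (adjusted p = 0.582).

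Factors of forebrain GABAergic neurons were mostly at background. Dlx1, Dlx2 and Dlx6 lay under the 40th percentile on all 6 arrays, and Dlx5 exceeded it on 1 negative array. Six3, the 1 tested of 6, had 15.7, 15.4 and 26.5 in positive and 209, 191 and 168 in negative cells (-3.34, SE 0.33, adjusted p = 0.000182). Progenitor markers differed in part: of 10 tested 2 were lower, the radial glial gene Fabp7 (-1.18, SE 0.26, adjusted p = 0.0494) and Pax6 (-2.22, SE 0.34, adjusted p = 0.00696), with sums of 5130 to 7820 in positive and 8990 to 10600 in negative cells. Fabp7 did not pass on the 4 arrays of higher spike-in signal (-0.62, adjusted p = 0.8) and held only without positive replicate 3 among the fits that left out 1 array.

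Among all tested genes, those whose log2 signal followed Gad1 most closely over the 6 arrays were Mcur1, Cgn, Ust, Pisd-ps3 and Fgfbp3, at Pearson r of 0.9915 to 0.9965. Of the genes most like Gad1, Fgfbp3, which encodes a binding protein of fibroblast growth factors, was past the threshold in limma, with 345, 273 and 411 in positive and 823, 934 and 1270 in negative cells (-1.55, SE 0.23, adjusted p = 0.00543). Those closest to Slc17a6 were Soga3, Ccdc6, Cacna2d1, Ing4 and Aimp1, at 0.9889 to 0.9949. Of these, Cacna2d1, an auxiliary subunit of voltage-gated calcium channels, was past it, with 448, 667 and 291 in positive and 213, 159 and 152 in negative cells (1.36, SE 0.29, adjusted p = 0.0443). Among the members, Gad1 and Gad2 correlated at 0.951, and Gad1 and Slc17a6 at -0.967. The 6 arrays fall into 2 groups, so a difference between groups enters every coefficient, and they are given as descriptions without a test.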

How the data were processed

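Per the labels' protocols, biotinylated cRNA was made from the total RNA of each sorted sample. The deposited table holds an intensity for 45101 probe sets. Per the submitters' processing notes, the authors used MAS5 and R (2.14.2), and limma is named without a role. MAS5 scales each array, so differences in RNA content per cell are not measured.

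After 64 control probe sets were removed, 45037 were left, of which the platform annotation gave 34957 a single symbol, 920 more than 1 and 9160 none. Values under 1 were set to 1 before log2 was taken. The fit used limma 3.58.1 under R 4.3.3 (lmFit and eBayes with a trend, two-sided, 4 residual degrees of freedom, threshold 0.05), over 12047 genes or 27738 probe sets, and was tested on simulated data. Where a group was under the 40th percentile on all its arrays, "at least" folds set the brighter group against the higher of the signal and that percentile. Beside the members, the text names up to 4 called genes of each list or else its brightest 2, and the 5 genes most like Gad1 and Slc17a6. Abat, Got1, Slc1a3, Gria4, Grm5, Tph2, Pou4f1, Lhx9, Nkx6-1, Barhl1, Lhx1 and Tal1 and neighbouring genes were named beyond that rule, with their values seen. The members and lists were chosen with earlier results of these data known. Same-numbered replicates did not deviate together (correlations of 0.139, -0.096 and 0.032) and no label pairs them. Alternatives were quantile normalization, median centring, no filter, a 60th percentile filter, log2 of the value plus 32, no trend, averaging the tested probe sets of each gene, leaving out ambiguous probe sets (suffixes _s_at, _x_at and _a_at), a replicate block, the spike-in level and leaving out each array. Plots were made with Python 3.11.15 and matplotlib 3.10.9. The number of arrays limits the precision.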

Additional observations from a re-analysis of the deposited data

How the results depend on the processing

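The 1 member called lower became 0 without the filter, without a trend, with the spike-in level as a block and on the 4 arrays of higher spike-in signal, became 2 without ambiguous probe sets, and was 1 to 2 when 1 array was left out. The 1 member called higher became 0 under median centring and under those same 4 alternatives, and was 0 to 1 when 1 array was left out. The 4 transmitter genes called higher became 2 under median centring and 0 under those 4 alternatives, and were 1 to 3 when 1 array was left out. They were 3 with the replicate block, and 5 under log2 of the value plus 32 and without ambiguous probe sets. Under quantile normalization there were again 4 transmitter genes called higher, but Slc18a2 was not among them (adjusted p = 0.0686). The 1 called lower became 2 (with Tph2) under quantile normalization, median centring, log2 of the value plus 32, the 60th percentile and the replicate block, 0 without the filter and with the spike-in level as a block, and was 1 to 2 when 1 array was left out. The 1 member probe set called lower became 0 under median centring, no filter, no trend and both spike-in alternatives, and was 0 to 2 when 1 array was left out; the 0 called higher became 1 under the 60th percentile and log2 plus 32, and was 0 to 1 when 1 array was left out. The Gad1 to Slc17a6 difference of -2.56 was -1.85 under both spike-in alternatives and -2.56 with the replicate block, and -2.92 to -2.30 when 1 array was left out.

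Over 17 alternatives Gad1 kept its sign, from -1.64 to -1.22, and passed in 13. Slc17a6 kept its sign, from 0.63 to 1.35, and passed in 7. Gad2 kept its sign, from -0.83 to -0.52, and Slc32a1 ran from -0.68 to 0.0255, its sign turning with the mean of its probe sets. With the replicate block adjusted p was 0.00599 for Gad1, 0.205 for Gad2, 0.613 for Slc32a1 and 0.0373 for Slc17a6, on the same side of the threshold as without it; among the other genes named, Slc18a2 (0.0523), Tal1 (0.0528) and Fabp7 (0.0728) were lost and Tph2 (0.029) was gained. Removing the filter adds dim probe sets and genes to the adjustment and also to the fit that moderates each gene's spread. The spike-in alternatives rest on 1 positive array. The cause was not tested for any of the changed calls. Dim genes such as Slc17a7 are limited by signal near the background.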
